A study of Mus musculus with 5 samples.

Results

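The Ly6 surface antigen genes described here are Ly6c1, Ly6c2, Ly6a, Ly6e and Ly6i, 5 of the 23234 gene symbols measured by RNA-seq in sorted mouse bone marrow (BM) cells. They were chosen by symbol, and each was listed in all 5 libraries. All cells came from C57BL/6 mice aged 7 weeks with the genotype +/Ym1Venus, in which the fluorescent protein Venus reports expression of Ym1. Lipopolysaccharide (LPS), a bacterial cell wall component that causes systemic inflammation, was given intravenously at 100 µg per mouse, and cells were sorted 48 h later. The 3 monocyte groups, the Ym1+ monocytes after LPS, the Ym1- monocytes after LPS and the naïve monocytes, were Ly6C+ CD115+ cells, Venus+ in the first and Venus- in the others. The neutrophils after LPS and the naïve neutrophils were Ly6G+ cells, and naïve mice received no treatment. Each condition has 1 library, and the sources used here do not say how many mice it stands for. Because Ly6C protein was a sort marker of the monocytes, the gate itself bears on the level of Ly6c1 and Ly6c2 in these 3 libraries.

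Ly6 proteins are small surface proteins with a compact fold held by disulfide bonds, and most are tied to the outer membrane by a glycosylphosphatidylinositol (GPI) anchor. In the mouse many of their genes lie side by side on 1 chromosome, and the family is used chiefly as a set of surface markers of blood cells. Ly6C marks the inflammatory monocytes of BM and blood and is also present on neutrophils, and antibodies to Gr-1 bind Ly6G and Ly6C. Ly6a encodes Sca-1, the antigen used to sort haematopoietic stem cells, and Ly6a and Ly6e are known to be raised by interferon in many cell types.

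Values are FPKM, fragments scaled by transcript length and by library size, as deposited. Differences between libraries are given as log2(FPKM + 1), which understates the change of low genes, and a gene was counted as apart at 2-fold or more if its FPKM reached 1 in one of the pair. With 1 library per condition there is no replicate check and no p-value, so each difference describes a pair of libraries. The depth, read from steps between low values, was lowest in the Ym1- library, at 44.8% of the Ym1+ library, and was 62.4% to 97.3% in the others. Intervals given below are 95% intervals for counting error only, and rest on an approximate depth of 4.22 to 9.44, in units of 1e6 fragments. The sorted cells carried the markers of their labels, although an FPKM of 1 alone does not separate the cell types. All 14 monocyte markers listed, among them Csf1r and Ccr2, had an FPKM of at least 1 in the 3 monocyte libraries. All 15 neutrophil markers did in both neutrophil libraries, where they summed to 312907 and 314379 FPKM against 1470 to 16442 in monocytes. Yet all 15 also reached 1 in Ym1+ monocytes, and 14 did in the other monocyte libraries. The monocyte list summed to 14350, 12192 and 21673 in Ym1+, Ym1- and naïve monocytes. In neutrophils its sums were 6615 with LPS and 16515 without, nearly all Lyz2. Without Lyz2, the other 13 summed to 4001, 3998 and 5842 in the same monocyte libraries and 301 and 263 in neutrophils. A value of 0 in such files can be a failed estimate, so a gene is said only to be listed at 0. In bulk samples such as these, fewer cells of a type and less RNA per cell cannot be told apart.

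Ly6c1 and Ly6c2 are near copies of each other, which limits how far their levels can be separated. Their coding sequences are both 396 bases long and are identical at 387 of them. Of the 9 differences, 6 fall in the first 70 bases, which are shown because they are the coding stretch in which a read can best tell the genes apart. The sequences are from GENCODE transcripts of the GRCm38 build, on the minus strand at chr15:75048442-75048511 for Ly6c1 and chr15:75111598-75111667 for Ly6c2, and capitals mark the bases that differ.
Ly6c1: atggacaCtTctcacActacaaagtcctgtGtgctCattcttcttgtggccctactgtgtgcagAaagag
Ly6c2: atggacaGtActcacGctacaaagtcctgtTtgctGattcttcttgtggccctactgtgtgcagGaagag
Counted from the first base of the start codon and with the base of Ly6c1 first, the differences in this stretch were C8G, T10A, A16G, G31T, C36G and A65G. The remaining 3 were G254A, T327C and G376A, which leaves a run of 188 identical bases from position 66 to 253.

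Windows of 50 bases were used to measure how much of each transcript occurs in another gene. Of the 795 windows of Ly6c1-201, 252 (31.7%) were present in Ly6c2, and none of the 2232 windows of Ly6e-201 was present in any other gene. The remaining Ly6c1 windows held 40 that were present in Ly6a. In all, 62 of the 770 windows of Ly6a occurred in other genes, 31 of them in Ly6i, as did 55 of the 1107 windows of Ly6i. Ly6i shared 2 windows with Ly6g, which encodes the sort marker of the neutrophils and was not among the symbols measured. With windows of 30 bases the shared parts were larger, at 58.5% of Ly6c1, 23.3% of Ly6a and 20.9% of Ly6i. The coding sequence of Ly6a was 86.4% identical to that of Ly6i and 57.9% identical, over the aligned bases, to that of Ly6e, so that Ly6e is the most distant of the 5 genes. The sources used here do not say how shared fragments were divided, and the separate levels of Ly6c1 and Ly6c2 are therefore uncertain. The same holds for the smaller shared part of Ly6a and Ly6i, the more so as Ly6c1 is far more abundant, whereas Ly6e has no such overlap at 50 bases.

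**Figure D1:**
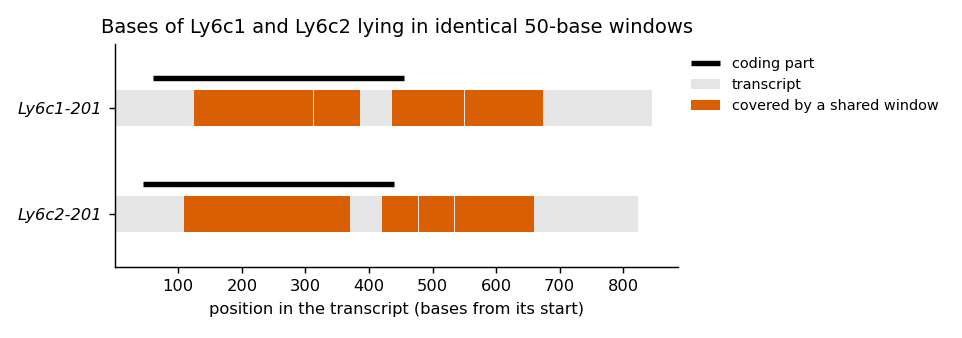
Each bar is 1 transcript, Ly6c1-201 above and Ly6c2-201 below, drawn by position in bases from its start. Orange marks bases covered by a 50-base window that is identical in the other gene, and the black line marks the coding part. The 252 shared windows of Ly6c1 cover bases between 125 and 674 of 844, the longest run, from 125 to 312, lies in the coding part, and the first bases hold none.

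In every library Ly6c1 stood at nearly the same share of Ly6c2. Its FPKM was 22.4% of that of Ly6c2 in Ym1+ monocytes, 21.4% in Ym1- monocytes, 21.1% in naïve monocytes, 21.6% in neutrophils after LPS and 21.4% in naïve neutrophils. The highest of these ratios was 1.06 times the lowest. Of 7037 genes above 0 everywhere and at an FPKM of 10 or more somewhere, 1 besides Ly6c1 kept its ratio to Ly6c2 within that span. This was Coro1b, which encodes a coronin that binds actin. The limit was set by Ly6c1 itself, and counting error alone exceeds it for less abundant genes. For Ly6a in Ym1+ monocytes, for example, the counting interval was 39.0 to 48.2. The count therefore does not show how rare an even ratio is. The corresponding span was 2.62-fold for Ly6a, 8.90-fold for Ly6e and 10.6-fold for Ly6i. Whether the even ratio of Ly6c1 to Ly6c2 comes from the shared windows was not tested.

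**Figure D2:**
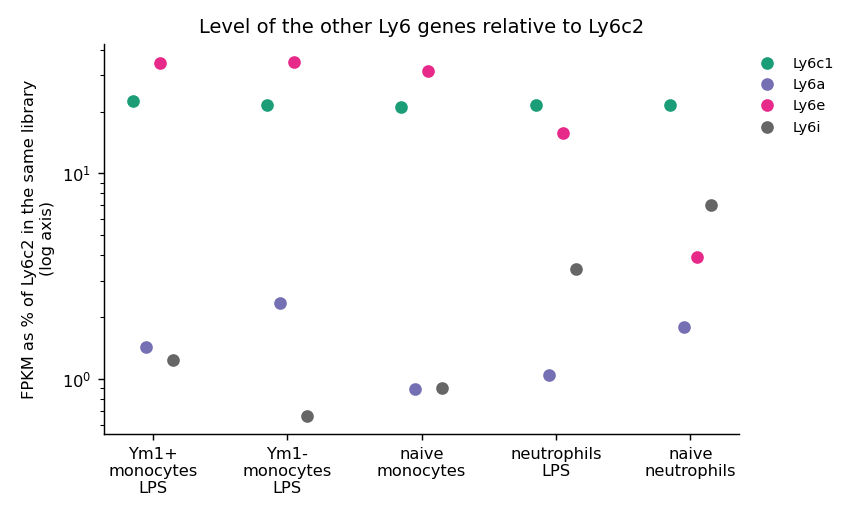
The vertical log axis gives the FPKM of each gene as a percentage of Ly6c2 in the same library, with 1 point per gene and library and the genes set slightly apart. Ly6c1 stays between 21.1% and 22.4% in all 5 libraries, while Ly6e drops to 3.93% and Ly6i climbs to 7.00% in naïve neutrophils.

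The upstream regions of Ly6c1 and Ly6c2 are less alike than their coding parts. They are shown because these 2 genes keep the same profile over the libraries. The 250 bases before the first RefSeq start (GRCm38.p6, minus strand) are given, at chr15:75048838-75049087 for Ly6c1 and chr15:75111972-75112221 for Ly6c2, and capitals mark GAGGAA, the core bound by the myeloid factor PU.1, or its reverse complement.
Ly6c1: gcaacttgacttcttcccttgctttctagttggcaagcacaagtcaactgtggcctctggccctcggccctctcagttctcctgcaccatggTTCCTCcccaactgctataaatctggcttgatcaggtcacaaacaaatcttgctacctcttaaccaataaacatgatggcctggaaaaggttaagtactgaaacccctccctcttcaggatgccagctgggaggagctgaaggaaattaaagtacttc
Ly6c2: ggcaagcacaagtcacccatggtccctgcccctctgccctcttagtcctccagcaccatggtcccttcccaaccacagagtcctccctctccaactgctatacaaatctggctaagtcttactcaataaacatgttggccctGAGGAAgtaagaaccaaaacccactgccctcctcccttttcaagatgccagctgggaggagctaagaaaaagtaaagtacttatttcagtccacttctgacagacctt
Aligned end to end, these regions had 164 identical positions, 52 mismatches and 68 gap positions. The gap positions include overhang at the ends, since the 2 stretches do not begin at matching bases. Over the aligned bases 75.9% were identical, beside 97.7% for the coding sequences. In windows that also hold the 50 bases after the start, GAGGAA on either strand with any overlap was present in both genes, at -158 in Ly6c1 and at -108 and 26 in Ly6c2 by distance from the start, with bases before it negative, and was present in 28.3% of 32851 promoter windows of the genome. The interferon-related letters TTCNNNGAA, and GAAA repeated after a gap of 2 bases, held by 8.30% and 3.44% of all windows, were not in these windows of either gene, nor were the letters TTGCNNAA, held by 10.8%. TATAAA, held by 13.6%, was at -143 in Ly6c1 and not in the window of Ly6c2. Each gene has 2 annotated starts, however, and the second gave other positions. Counted from it, GAGGAA was at -127 and 13 in Ly6c1 and at -142 and -8 in Ly6c2. TATAAA was then in the window of neither gene, so these contrasts between the genes depend on the start chosen. Promoter windows were matched for 2 of the 5 genes, and none is shown for Ly6a, Ly6e and Ly6i.

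Ly6c2, the more abundant of the pair that encodes Ly6C, was among the most abundant genes of the monocytes. Its FPKM was 3029 in Ym1+ monocytes, 3175 in Ym1- monocytes, 3245 in naïve monocytes, 1613 in neutrophils after LPS and 1377 in naïve neutrophils. By level it ranked 9th, 6th and 6th of all genes in the monocyte libraries and 44th and 37th in the neutrophil libraries. The 3 monocyte libraries lay within 1.07-fold of each other and the neutrophil libraries below all of them, at 49.7% and 42.4% of naïve monocytes. The intervals of Ym1- monocytes, 3108 to 3243, and naïve monocytes, 3187 to 3303, overlapped.

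Ly6c1, its near copy, had FPKM values of 678 in Ym1+ monocytes, 681 in Ym1- monocytes, 686 in naïve monocytes, 349 in neutrophils after LPS and 295 in naïve neutrophils. The intervals of the 3 monocyte libraries overlapped, so their order could not be told at this depth. Summed over both genes, the FPKM was 3707, 3856 and 3931 in Ym1+, Ym1- and naïve monocytes and 1962 and 1671 in neutrophils with and without LPS. Both genes had the same order over the libraries, so the sum had it as well.

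Ly6a, which encodes Sca-1, was far less abundant, with FPKM values of 43.4 in Ym1+ monocytes, 74.0 in Ym1- monocytes, 28.9 in naïve monocytes, 17.0 in neutrophils after LPS and 24.7 in naïve neutrophils. Its highest level was in the Ym1- library and its lowest in neutrophils after LPS, 4.36-fold apart. The intervals of naïve monocytes and naïve neutrophils overlapped, the former beginning at 24.4 and the latter ending at 28.4, and those of the other neighbours in the order did not.

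Ly6e, which encodes an antigen first described on thymocytes and known to affect virus entry, had the widest range of the 5 genes. Its FPKM was 1043 in Ym1+ monocytes, 1109 in Ym1- monocytes, 1027 in naïve monocytes, 255 in neutrophils after LPS and 54.0 in naïve neutrophils. The monocyte libraries lay within 1.08-fold of each other and stood 20.5-fold above naïve neutrophils at the widest, with neutrophils after LPS in between. Its rank among all genes went from 71st to 81st in monocytes to 1253rd in naïve neutrophils.

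Ly6i, a near relative of Ly6a, had the opposite order to Ly6c1, Ly6c2 and Ly6e between the cell types. Its FPKM was 37.7 in Ym1+ monocytes, 20.9 in Ym1- monocytes, 29.2 in naïve monocytes, 55.5 in neutrophils after LPS and 96.3 in naïve neutrophils. Both neutrophil libraries lay above all 3 monocyte libraries. The interval of naïve monocytes, 24.8 to 34.2, overlapped those of the other monocyte libraries, 33.6 to 42.1 for Ym1+ and 16.6 to 26.1 for Ym1-, which did not overlap each other.

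**Figure D3:**
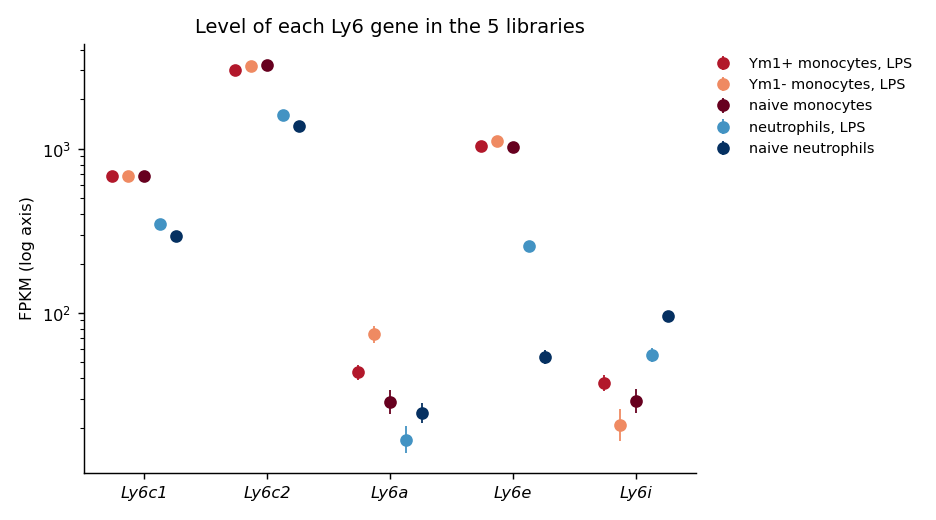
The vertical log axis gives FPKM, with 1 point for each gene and library and bars for the 95% counting interval, which is often smaller than the point. Ly6c1, Ly6c2 and Ly6e lie higher in the 3 monocyte libraries than in both neutrophil libraries, Ly6i lies lower, and Ly6a is highest in Ym1- monocytes at 74.0.

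The comparison of Ym1+ with Ym1- monocytes, both after LPS, asks whether these antigens differ between the Venus+ and Venus- parts of the Ly6C gate. None of the 5 genes was 2-fold higher and none 2-fold lower, beside 1.38% and 1.18% of all 10489 genes compared. Ly6c1 differed by -0.0053 on the log2 scale (0.03 with TPM and 0.06 with median-of-ratios scaling), Ly6c2 by -0.068 and Ly6e by -0.090. Ly6i was 1.80-fold higher in the Ym1+ library (interval 1.40 to 2.34), a log2 difference of 0.82 that lay above 97.8% of all genes. Ly6a was 1.70-fold lower in the Ym1+ library, a log2 difference of -0.76, and only 2.82% of genes lay below it. These 2 genes, near relatives with 31 shared windows, thus stood at opposite ends of the distribution without reaching 2-fold.

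Marker lists of other cells also differed in this comparison, the neutrophil list in the direction of Ly6i. In Ym1+ cells 13 of its 15 genes were 2-fold higher or more and none was lower, with a median log2 difference of 2.15. Over all genes compared, 1.38% were higher and 1.18% lower, which is the background for each list here. The neutrophil list summed to 16442 FPKM in the Ym1+ library, 2516 in the Ym1- library and 1470 in naïve monocytes. Of 8 erythroid markers, the haemoglobin genes Hba-a1 and Hbb-b1 were compared and both were 2-fold higher in the Ym1+ library, with list sums of 17.4, 2.16 and 19.8 in the same order of libraries. Dendritic cell markers went the other way, as Ly6a did, with 4 of 4 compared lower in Ym1+ cells and sums of 14.9, 58.1 and 159.5. Progenitor markers, with 2 of 4 lower, and eosinophil and basophil markers, with 2 of 5 lower, also went that way. In both of these lists none was higher. The part of these lists in the Ly6i and Ly6a differences was not tested.

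When Ym1- monocytes from LPS-treated mice were set against naïve monocytes, both Venus-, Ly6a stood out. It was 2.56-fold higher after LPS (interval 2.09 to 3.16), a log2 difference of 1.33 above 98.8% of genes. Thus 1 of the 5 genes was higher and none lower, beside 2.86% and 4.72% of all 10714 genes. Ly6c1 and Ly6c2 differed by -0.011 and -0.031, the former turning to 0.01 with median-of-ratios scaling. Ly6e differed by 0.11. Ly6i was lower after LPS in this pair, with a difference of -0.46 and an interval of the ratio from 0.54 to 0.95.

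Ym1+ monocytes after LPS were next set against the same naïve library, so this comparison shares its control with the preceding one. None of the 5 genes was 2-fold higher or lower, beside 2.59% and 4.51% of 10698 genes. Ly6a was higher by 0.57 on the log2 scale (interval of the ratio 1.24 to 1.84), and Ly6i was 1.29-fold higher, a difference of 0.36. Ly6a therefore was above naïve monocytes in both libraries after LPS, and Ly6i was above it in one and below it in the other. Ly6c1 and Ly6e were near 0, at -0.016 and 0.021, signs that turned to 0.07 for Ly6c1 with median-of-ratios scaling and to -0.02 for Ly6e with TPM, and Ly6c2 was at -0.10.

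Other cell types, of which only some are known to carry Sca-1, were examined beside Ly6a by their marker lists. Of 9 progenitor markers, 4 reached an FPKM of 1 in Ym1- monocytes, 2 in Ym1+ and 6 in naïve monocytes, with sums of 26.4, 13.1 and 54.7. Mecom was listed at 0 in all 5 libraries. Of 8 endothelial markers, only Pecam1 reached an FPKM of 1, with sums of 9.03, 10.1 and 12.4, and Emcn was listed at 0 in these 3 libraries. Of 9 T and NK cell markers measured, 1 reached an FPKM of 1 in each monocyte library, with sums of 5.91, 7.15 and 19.0, and Cd3e was listed at 0 in all 5 libraries. Of 10 plasma and B cell markers 2 did, with sums of 159, 163 and 130. Of 8 plasmacytoid dendritic cell markers 3 did. Their sums were 85.9, 68.9 and 74.1, highest in Ym1- monocytes as Ly6a was, but lowest in Ym1+ monocytes. Most of these sums was Bst2, at 78.7, 63.9 and 63.0. The sum of the eosinophil and basophil list did move with Ly6a, but not every gene of it did. Its sums were 42.7, 9.06 and 8.55 in the same order of libraries, with 4, 2 and 3 of 8 genes at 1 or more. The granule gene Prg2 had an FPKM of 27.97 in Ym1- and 0.24 in naïve monocytes and was listed at 0 in the Ym1+ library, while Fcer1a was listed at 0 in all 3. In Ym1- against naïve monocytes 3 of 5 compared were 2-fold higher and none lower, beside 2.86% and 4.72% of all genes. Mcpt8, at 1.68 against 2.39, and Siglecf (measured as Siglec5), at 0.57 against 1.49, went the other way short of 2-fold. The part of these lists in the Ly6a difference was not tested.

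Neutrophils after LPS differed from naïve neutrophils most in Ly6e. It was 4.71-fold higher after LPS (interval 4.22 to 5.28), a log2 difference of 2.22 above 98.7% of genes. This was 1 gene higher of 5 and none lower, beside 8.96% and 5.35% of 9583 genes. Ly6c1 and Ly6c2 were 1.18-fold and 1.17-fold higher, at 0.24 and 0.23. Ly6i was lower after LPS, at 0.58 of the naïve level and -0.79 on the log2 scale, and Ly6a was at 0.69 of the naïve level and -0.52. In the neutrophils the genes therefore went in both directions. The monocyte markers summed to 6615 FPKM in neutrophils after LPS and 16515 in naïve neutrophils, with 9 and 8 of 14 at an FPKM of at least 1, but Lyz2, the lysozyme gene that neutrophils also express, made up 6314 and 16252 of these sums. Without Lyz2, left out after its value was seen, the other 13 summed to 301 and 263. Of 9 markers compared, Cd14, F13a1 and Ctss were 2-fold higher after LPS, the first at 22.1 against 3.11 and the second at 10.7 against 3.87, and Lyz2 and Csf1r were 2-fold lower. The part of these markers in the Ly6e difference was not tested.

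Naïve neutrophils against naïve monocytes gave the widest differences. Ly6e was 19.0-fold lower in neutrophils, a log2 difference of -4.22 (interval of the log2 ratio -4.40 to -4.10). Ly6c1 and Ly6c2 were 2.33-fold and 2.36-fold lower, at -1.21 and -1.24. Ly6i was 3.30-fold higher (interval 2.77 to 3.95), a difference of 1.69 above 94.5% of genes. In all, 1 gene was higher and 3 lower, beside 10.8% and 42.7% of 10944 genes. The median of all genes was itself at -0.79 in this comparison, and relative to it Ly6c1 and Ly6c2 lay at -0.43 and -0.45, Ly6e at -3.44 and Ly6i at 2.48. With median-of-ratios scaling, where that median was -0.08, Ly6c1 and Ly6c2 differed by -0.37 and -0.39 and were no longer 2-fold apart. Ly6a was at -0.22 as deposited and at 0.60 with that scaling, so no direction can be given for it.

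After LPS, neutrophils compared with Ym1+ monocytes gave smaller differences in the same directions for Ly6c1, Ly6c2, Ly6e and Ly6i. Ly6e was 4.09-fold lower in neutrophils and Ly6a 2.56-fold lower, at -2.03 and -1.31. These were 2 genes lower of 5 and none higher, beside 36.4% and 9.53% of 10520 genes, with a median of -0.66. Ly6c1 and Ly6c2, at -0.96 and -0.91, were just short of 2-fold, and Ly6i was 1.47-fold higher at 0.55. With median-of-ratios scaling only Ly6e remained 2-fold lower, at -1.28, while Ly6a was at -0.58 and Ly6i was 2-fold higher at 1.29. With TPM, by contrast, Ly6c1, Ly6c2 and Ly6a were 2-fold lower, at -1.45, -1.40 and -1.80, and Ly6i was at 0.067, so that its difference in this pair depends on the scaling.

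**Figure D4:**
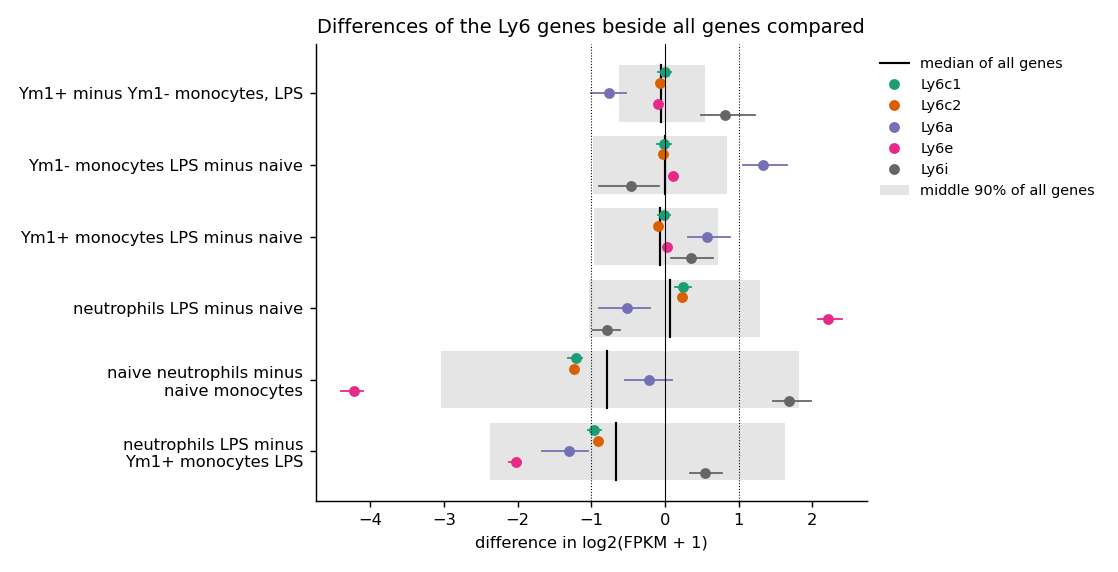
The horizontal axis gives the difference in log2(FPKM + 1) for 6 pairs of libraries, with points for the 5 genes, coloured lines for 95% counting intervals of the ratio, grey bars for the middle 90% of all genes and black ticks for their median. Dotted lines mark 2-fold. Ly6e lies outside the grey bars in both naïve neutrophil comparisons, at 2.22 and -4.22, and Ly6a lies beyond its bar at 1.33 in Ym1- monocytes after LPS. In Ym1+ against Ym1- monocytes Ly6i, at 0.82, and Ly6a, at -0.76, also lie outside the bar.

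The levels in neutrophils can be read against those of other monocyte genes. Of 14 monocyte markers, 9 were below 5% of their naïve monocyte level in naïve neutrophils, with a median of 0.412%, and 10 were in neutrophils after LPS, with a median of 0.834%. Ccr2, the chemokine receptor by which monocytes leave BM, was at 0.198% in naïve neutrophils, and F13a1, which encodes a coagulation factor subunit, was at 0.470%. Ly6c2 was at 42.4% and Ly6a at 85.6% in the same library. The neutrophil level of Ly6c2 was thus far above that of these monocyte genes. Lyz2, Emb and Cd14, which are not restricted to monocytes, were at 103%, 54.1% and 27.0%.

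**Figure D5:**
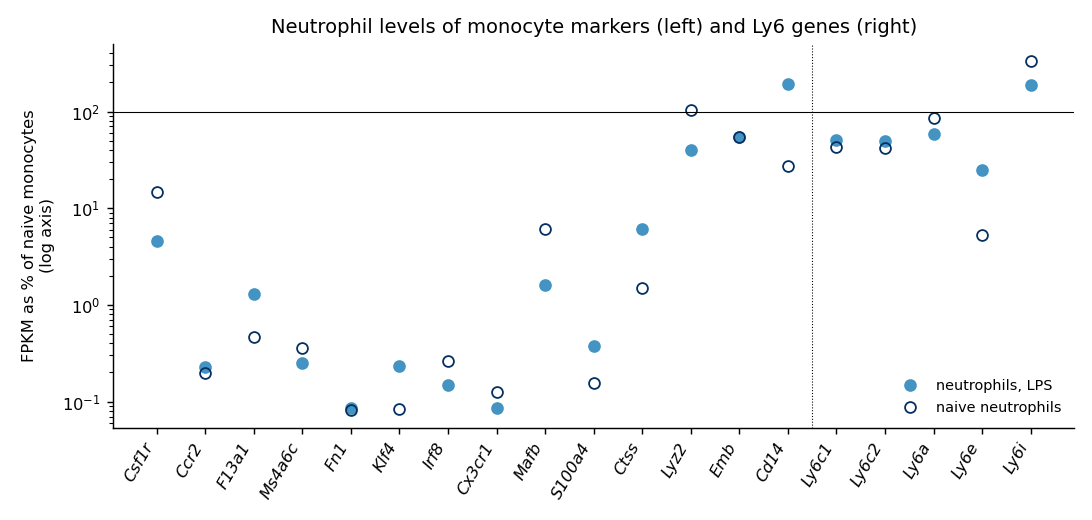
The vertical log axis gives the FPKM in neutrophils after LPS (filled) and naïve neutrophils (open) as a percentage of naïve monocytes, for 14 monocyte markers on the left and the 5 Ly6 genes on the right of the dotted line. Most markers lie below 5%, whereas Ly6c1 and Ly6c2 lie between 42.4% and 50.8% and Ly6i lies above the line at 100%.

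Of the wider family of Ly6 and urokinase receptor (uPAR) domain genes, few were expressed in these cells, and higher or lower means by 2-fold or more in the lists that follow. Of 44 genes listed, 39 were measured, 11 had an FPKM of at least 1 in some library, the 5 genes above included, and 18 were listed at 0 in all libraries. Ly6g was among those not measured, so nothing can be said of its level. Plaur, which encodes the urokinase receptor, had FPKM values of 66.2, 53.8 and 72.3 in Ym1+, Ym1- and naïve monocytes and 285 and 334 in neutrophils with and without LPS. Cd177, which encodes a neutrophil surface protein, had 35.5, 6.56 and 113 in monocytes and 2399 and 1492 in neutrophils. Ly6g5b was below 1 in monocytes and was 8.88 in neutrophils after LPS and 25.3 in naïve neutrophils. These 3 genes, like Ly6i, were higher in neutrophils.

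Ly6f was at 3.94 in naïve neutrophils and at most 1.84 elsewhere, and Lynx1 was at 1.46 in naïve monocytes and below 1 elsewhere. 9030619P08Rik, annotated as a transcribed pseudogene near Ly6f, was at 64.3, 47.1 and 61.7 in monocytes, 51.9 in neutrophils after LPS and 109 in naïve neutrophils. Of the 1127 windows of 30 bases of Ly6i-201, 12 were also present in it, so reads may be split between them. In naïve neutrophils against naïve monocytes 5 of the 11 family genes compared were higher and 4 lower, with a median of 0.81 beside -0.79 over all genes. Of all genes 10.8% were higher and 42.7% lower, so the share of family genes that were lower, 36.4%, was near the background. Against naïve cells after LPS, 1 of 10 was higher and 2 were lower in neutrophils (8.96% and 5.35% of all genes), 1 of 9 higher and 1 lower in Ym1- monocytes (2.86% and 4.72%), and 2 of 9 lower in Ym1+ monocytes (4.51%). In Ym1+ against Ym1- monocytes 1 of 8 was higher, Cd177 (1.38% of all genes), and in neutrophils against Ym1+ monocytes after LPS 3 of 10 were higher and 2 lower (9.53% and 36.4%). With so few genes compared, these shares are descriptions only.

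The 5 genes lie on chromosome 15 in the RefSeq order Ly6e, Ly6i, Ly6a, Ly6c1, Ly6c2. Between and within 10 genes on either side of them, 25 other genes are annotated, of which 8 were measured, and only Ly6f and 9030619P08Rik had an FPKM of at least 1. Ly6k was at most 0.38, Gml, Hemt1 and the steroid enzyme genes Cyp11b1 and Cyp11b2 were listed at 0 in all libraries, and 2010109I03Rik, now called Ly6m, was at most 0.88. Of the measured genes in this stretch, those with an FPKM of at least 10 were thus the 5 Ly6 genes and 1 more, 9030619P08Rik.

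Genes of GPI anchor synthesis, which Ly6 proteins need to reach the membrane, were measured for all 30 listed. In Ym1- monocytes after LPS none of 29 was at least 2-fold apart from naïve, beside 2.86% of all genes higher and 4.72% lower. In Ym1+ monocytes none was higher and 1 was lower, beside 2.59% and 4.51%. Between Ym1+ and Ym1- monocytes none of 29 differed 2-fold, beside 1.38% and 1.18%. With such low shares over all genes, these counts do not set the list apart. In naïve neutrophils against naïve monocytes 2 were higher and 11 lower of 29, with a median of -0.92 beside -0.79 over all genes. The 37.9% that were lower lay near the 42.7% of all genes. Pigf and Pigt, which act in the ethanolamine phosphate and transamidase steps, had FPKM values of 17.8 and 85.8 in naïve monocytes and 0.89 and 20.5 in naïve neutrophils. Pigh, of the first step, was at 10.6 and 0.98, and Dpm3, a mannose donor subunit, differed by -2.05 on the log2 scale. After LPS, neutrophils had 2 of 24 higher and 1 lower than naïve neutrophils (8.96% and 5.35% of all genes), and 2 of 29 higher and 8 lower than Ym1+ monocytes, where 9.53% of all genes were higher and 36.4% lower.

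Interferon-stimulated genes were listed because interferon is known to raise Ly6a and Ly6e. Of 24 compared in Ym1- monocytes after LPS against naïve monocytes, 1 was higher and 5 lower, with a median of -0.36 beside -0.0017 over all genes, of which 2.86% were higher and 4.72% lower. In Ym1+ monocytes 1 was higher and 3 lower, beside 2.59% and 4.51%. In neutrophils after LPS 5 of 20 were higher and 1 lower than in naïve neutrophils, with a median of 0.63 beside 0.07 and called shares of 8.96% and 5.35% over all genes. Ly6a was higher, by 1.33, in the Ym1- monocyte comparison, where this list had a negative median. In the neutrophil comparison, where the median was positive, Ly6a was lower, at -0.52. Ly6e differed by 0.11 in the former and by 2.22 in the latter. The part of interferon in these differences was not tested. Between Ym1+ and Ym1- monocytes none of 24 was 2-fold apart, beside 1.38% of all genes higher and 1.18% lower. Bst2, which encodes tetherin, another GPI-anchored antiviral protein, was at 63.9, 78.7 and 63.0 in Ym1+, Ym1- and naïve monocytes, 12.8 in neutrophils after LPS and 5.41 in naïve neutrophils, an order of cell types like that of Ly6e. Other genes of the list had the opposite order. Rsad2 was at 1.47, 1.01 and 5.95 in the same monocyte libraries and 17.4 and 19.3 in neutrophils with and without LPS.

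In naïve neutrophils against naïve monocytes, 3 of 24 interferon-stimulated genes were higher and 10 lower. Their median of -0.59 turned to 0.17 with median-of-ratios scaling. The shares of 12.5% and 41.7% were near the 10.8% and 42.7% of all genes. After LPS neutrophils had 8 of 24 higher and 7 lower than Ym1+ monocytes, beside 9.53% and 36.4%. Mx1, an antiviral GTPase, was at 20.0 in naïve monocytes and 0.12 in naïve neutrophils, and Gbp3, a guanylate-binding protein, at 24.7 and 0.48. Rsad2, which encodes viperin, was at 1.47 in Ym1+ monocytes and 17.4 in neutrophils after LPS. Of 12 genes of interferon signalling, none was 2-fold apart in the 3 monocyte comparisons, where 1.18% to 4.72% of all genes were in either direction. In neutrophils after LPS 1 was higher, 8.33% of the list beside 8.96% of all genes. This was Ifngr1, a receptor subunit, at 134 against 47.9. In naïve neutrophils against naïve monocytes 1 was higher and 4 lower, 8.33% and 33.3% of the list against 10.8% and 42.7% of all genes. Among those lower were the kinase Tyk2, at 8.56 against 41.8, Stat2 at 8.97 against 23.4 and the receptor subunit Ifnar2 at 70.9 against 155. Ifngr1 was also lower there, and 1 of 12 was lower in neutrophils than in Ym1+ monocytes after LPS, beside 36.4% of all genes.

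Likeness to each gene was measured over the 5 libraries as the root mean square difference of centred log2 profiles, among 7172 genes that reached an FPKM of 10 somewhere. The gene nearest to Ly6c1 was Ly6c2, at 0.028, followed by Reep5, an endoplasmic reticulum protein gene, at 0.033, and Tnpo2, a nuclear import gene, at 0.034, and nearest to Ly6c2 were Coro1b, at 0.026, Ly6c1 and Reep5. Their profile was a common one, since 1036 genes lay within 0.25 of Ly6c1. Nearest to Ly6e were Rpl3, at 0.12, Tspan31 and Rpl10a, of which the first and last encode ribosomal proteins, and 13 genes lay within 0.25. Rpl3 had FPKM values of 734, 985 and 734 in Ym1+, Ym1- and naïve monocytes and 208 and 42.2 in neutrophils with and without LPS.

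Ly6i was nearest to Tlr5, which encodes the flagellin receptor, at 0.13, to Hnmt, which encodes a histamine-degrading enzyme, and to Fas, a death receptor gene, with 47 genes within 0.25. Fas had FPKM values of 17.6, 9.17 and 9.99 in Ym1+, Ym1- and naïve monocytes and 23.5 and 39.0 in neutrophils with and without LPS. Ly6a had the least shared profile. Only 4 genes lay within 0.25 of it, and the nearest were Pam16, at 0.16, Dap3 and Gfm2, which encode mitochondrial proteins. Among the 5 genes themselves, Ly6e and Ly6i were farthest apart, at 2.41, and Ly6a lay at 0.49 from both Ly6c1 and Ly6c2. These are descriptions over 5 libraries that share their scaling, and with Pearson correlation in place of this measure 0 of the 15 nearest genes were the same.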

How the data were processed

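RNA from 5 sorted populations of mouse BM cells was sequenced by the authors, 1 library per condition, with a strand-specific kit. Per library, the authors deposited FPKM values for 23234 symbols. Per the submitters' processing notes, the tools were TopHat2 2.0.8 and Cufflinks 2.1.1 and the build was mm9. Options, annotation, read totals and the handling of shared fragments were not given in the sources used here. Since FPKM is already scaled by length and depth, count models were not used.

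With Python 3.11.15, numpy 2.4.6, pandas 2.3.3 and scipy 1.17.1, log2(FPKM + 1) was subtracted for 6 pairs of libraries. Genes that reached an FPKM of 1 in one of the pair were compared, and those 2-fold or more apart counted. With 1 library per condition no test was possible. Relative depth came from the commonest ratio of values under 0.3 FPKM between libraries, and absolute depth and fragment counts, which are rough, from median GENCODE transcript lengths. Intervals are 95% Poisson intervals of a level or exact conditional binomial intervals of a ratio without pseudocount. Alternatives were a pseudocount of 0.1, TPM and median-of-ratios scaling, 1.5-fold and 4-fold thresholds, other filters and, for likeness, Pearson correlation. The steps were tested on simulated data.

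The genes and lists were chosen with earlier results of these data known. Named besides the 5 genes are family genes with an FPKM of at least 1, the 3 nearest genes to each, up to 4 genes with the largest difference in each of the GPI anchor and interferon lists, marker genes and chromosomal neighbours. Coro1b, for its ratio to Ly6c2, and the single marker genes given were picked after their values were seen. Sequences are from GENCODE M21 (GRCm38) and RefSeq (GRCm38.p6), not the build of the files, and were aligned with Biopython 1.88. The files hold no coordinates.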

Additional observations from a re-analysis of the deposited data

Results flagged for a closer look

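After LPS, the differences of 3 genes from naïve cells had opposite signs in Ym1- monocytes and neutrophils, with 1 library behind each level. Ly6a differed from naïve cells by 1.33 on the log2 scale in Ym1- monocytes and by 0.57 in Ym1+ monocytes, but by -0.52 in neutrophils, so that the Ym1- monocyte and neutrophil differences were 1.85 apart. The signs were the same with TPM and with median-of-ratios scaling. Ly6c2 differed by -0.031 in Ym1- monocytes and 0.23 in neutrophils, a gap of -0.26, and Ly6c1 by -0.011 and 0.24, a gap of -0.25, but with median-of-ratios scaling Ly6c1 in Ym1- monocytes was at 0.01 and no longer opposite. The counting intervals of the log2 ratio in Ym1- monocytes, -0.071 to 0.0086 for Ly6c2 and -0.11 to 0.084 for Ly6c1, both span 0, so the side of naïve monocytes on which these 2 genes lay was not resolved at this depth. Without a second library per condition, none of these differences between cell types was tested.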

How the results depend on the processing

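No paired analysis was possible because each condition has 1 library and the labels give no replicate numbers that pair them. For the same reason no replicate could be left out. With a pseudocount of 0.1, all 12 counts of Ly6 genes and all 30 single differences were as in the report within counting error. At 1.5-fold, 1 gene was higher and 1 lower in Ym1+ against Ym1- monocytes, 1 was lower in neutrophils after LPS against naïve neutrophils and 4 were lower in neutrophils against Ym1+ monocytes after LPS. At 4-fold, 0 were higher in Ym1- against naïve monocytes and 0 higher and 1 lower in naïve neutrophils against naïve monocytes, and 1 was lower in neutrophils against Ym1+ monocytes after LPS. With median-of-ratios scaling, 1 gene was lower in naïve neutrophils against naïve monocytes, and 1 was higher and 1 lower in neutrophils against Ym1+ monocytes after LPS, whereas with TPM 4 were lower there. The sign of a single difference changed in 2 of 30 with TPM and 4 of 30 with median-of-ratios scaling, in Ly6c1, Ly6e or Ly6a, all below 2-fold. Ly6c1 and Ly6c2 summed gave differences within the interval of each gene in all 12. With Ly6c1 at a nearly constant share of Ly6c2, close values were bound to result, so this is no independent check. Filtering at an FPKM of 5 left 96 genes higher and 71 lower rather than 145 and 124 in Ym1+ against Ym1- monocytes. Of the 15 nearest genes, 10 were shared with a pseudocount of 0.1 and 0 with Pearson correlation, which ignores the size of differences. Levels of Ly6a and Ly6i rest on roughly 78 to 785 fragments per library.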
